A study of Mus musculus with 3 samples.

Results

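The Car2 and Bpgm cells were cells of the E15.5 section that carried both transcripts and little of the neuronal transcript Stmn2. A cell was a member when it held at least 3 counts of Car2, at least 1 count of Bpgm and fewer than 3 counts of Stmn2, among cells kept with at least 10 counts over the panel genes. Of 195915 kept cells, 5191 met this gate, which is 2.65% (exact binomial 95% interval 2.58% to 2.72%, counting error only). The same series held 203079 kept cells in all. The measured values of the 3 gate genes chose the members, so their levels are given below as a description.

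The data came from multiplexed error-robust fluorescence in situ hybridisation (MERFISH), an imaging method that reads barcoded RNA molecules in place in a tissue section and assigns them to segmented cells. A panel of 300 genes was designed, 4 of them for sequential imaging, and the count tables held 296 genes and 19 blank codes, which are barcodes given to no gene. Whole-embryo sections of wild-type mice were imaged, 1 section at E15.5 and 2 at E9.5 (E stands for embryonic day). Every result below is for the E15.5 section unless E9.5 is named, and with 1 section there is no replicate: intervals cover counting error only, no p-value is given, and cells are not replicates of the embryo.

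Red cells of the fetus form mainly in the liver, where erythroid precursors divide in islands around a central macrophage and beside sinusoids, the wide leaky capillaries of that organ. Car2 encodes carbonic anhydrase 2, a cytosolic enzyme that interconverts carbon dioxide and bicarbonate and is abundant in red cells. Bpgm encodes bisphosphoglycerate mutase, which makes the 2,3-bisphosphoglycerate that lowers the oxygen affinity of haemoglobin. Stab2, Oit3 and Clec4g are transcripts of liver sinusoidal endothelium, the first a scavenger receptor for hyaluronan and the last a lectin.

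The name erythroid could not be checked with independent markers. Of 31 erythroid markers listed, only Car2 and Bpgm were among the genes analysed here, and both define the gate; globin genes, Klf1 and Gata1 were not analysed here. The lists of hepatocyte (8 genes), megakaryocyte and platelet (7), mast cell, granulocyte and progenitor (10), and kidney and stomach (5) markers had no gene among those analysed here. The members are therefore called Car2 and Bpgm cells here. The labels give no organ, so the place where they lay is described by position alone.

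Upstream sequences are shown for 4 genes on which the results turn: Bpgm, which with Car2 defines the cells, Rgcc, which had the largest ratio in them, and Rrm2 and Ube2c, genes of DNA synthesis and of mitosis that were high with them. Each is the stretch of 250 bases before the annotated start, 5′ to 3′ in gene orientation, from RefSeq on build GRCm38.p6. Capitals mark matches on either strand to CCAAT, to TTTGAA or to GATAA, and matches may overlap. Car2 had no entry.
Bpgm (chr6:34476106-34476355, + strand): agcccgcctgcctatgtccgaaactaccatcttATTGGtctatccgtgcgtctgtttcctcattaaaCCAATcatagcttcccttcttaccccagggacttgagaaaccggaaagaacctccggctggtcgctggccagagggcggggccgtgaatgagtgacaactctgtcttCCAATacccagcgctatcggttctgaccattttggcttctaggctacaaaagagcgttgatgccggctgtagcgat
Rgcc (chr14:79301636-79301885, − strand): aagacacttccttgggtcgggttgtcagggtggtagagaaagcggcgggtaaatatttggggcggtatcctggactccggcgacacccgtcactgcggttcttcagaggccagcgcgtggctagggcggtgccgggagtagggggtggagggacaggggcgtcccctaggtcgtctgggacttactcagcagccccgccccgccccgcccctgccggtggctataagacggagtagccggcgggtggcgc
Rrm2 (chr12:24708004-24708253, + strand): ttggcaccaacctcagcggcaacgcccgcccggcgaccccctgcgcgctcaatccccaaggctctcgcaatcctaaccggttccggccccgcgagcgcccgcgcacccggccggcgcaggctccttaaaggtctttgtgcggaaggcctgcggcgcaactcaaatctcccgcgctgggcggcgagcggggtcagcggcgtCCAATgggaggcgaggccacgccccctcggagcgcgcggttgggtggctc
Ube2c (chr2:164769679-164769928, + strand): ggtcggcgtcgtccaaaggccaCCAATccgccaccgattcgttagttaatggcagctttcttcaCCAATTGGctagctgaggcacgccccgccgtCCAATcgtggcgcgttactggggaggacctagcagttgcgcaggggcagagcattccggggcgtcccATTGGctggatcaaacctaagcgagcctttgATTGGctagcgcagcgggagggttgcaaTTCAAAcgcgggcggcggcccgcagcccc

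GATAA was in none of these 4 stretches. Bpgm held 3 CCAAT matches, Rrm2 held 1, Ube2c held 6 with a TTTGAA match nearer the start, and Rgcc held no match of any of the 3 kinds. Of the 14 proliferation genes of the panel with an entry, 11 held CCAAT in this window (78.6%), against 36.3% of 270 promoters of panel genes and 33.8% of 32851 promoters in the RefSeq table. TTTGAA was in 3 of those 14 (21.4%), against 12.96% of the panel promoters and 15.99% of all promoters. GATAA was in 2 of 14 (14.3%), close to the 15.9% of the panel promoters, against 22.6% of all promoters. These are letter matches in a fixed window, and the genes were chosen after their values were seen.

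Car2 was the narrower of the 2 gate genes and Bpgm the broader. Car2 ranged from 3 to 71 counts in members, with a median of 7 and a mean of 8.19, against a mean of 0.488 in other kept cells. Bpgm ranged from 1 to 13 counts, with a median of 1 and a mean of 1.48, against 0.288 in other kept cells. Of the members, 3629 (69.9%) held a single Bpgm count, 1042 held 2 and 520 held 3 or more. Stmn2 was at 0 in 5134 members, at 1 in 49 and at 2 in 8.

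Bpgm alone did not mark these cells. It was present in 45382 kept cells, 23.2% of the section, whereas at least 3 Car2 counts were present in 15197. Among 21170 cells with at least 10 Stmn2 counts, a neuronal group taken here as a cell type in which little Car2 was found, 55.2% held a Bpgm count and 0.217% held 3 or more Car2 counts. The median depth of those cells was 144 counts, against 57 in members. Just outside the gate were 897 cells with 2 Car2 counts and 9937 with enough Car2 but no Bpgm, and just inside it were 791 members with 3 Car2 counts. The Stmn2 limit left out 43 cells, with a median of 233 counts.

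The members were gathered in one place. When members within 50 position units of each other were joined (the file gives no unit), 139 groups formed. The 3 largest, of 4580, 173 and 136 members, held 4889 of the 5191 and lay next to each other. The remaining 302 members fell into 136 groups of 16 or fewer, 81 of them a single cell. The 3 large groups are called the field and its members field members; kept cells that were no members but had at least 5 field members within 50 units are called field non-members. This division was made after the positions had been seen.

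**Figure D1:**
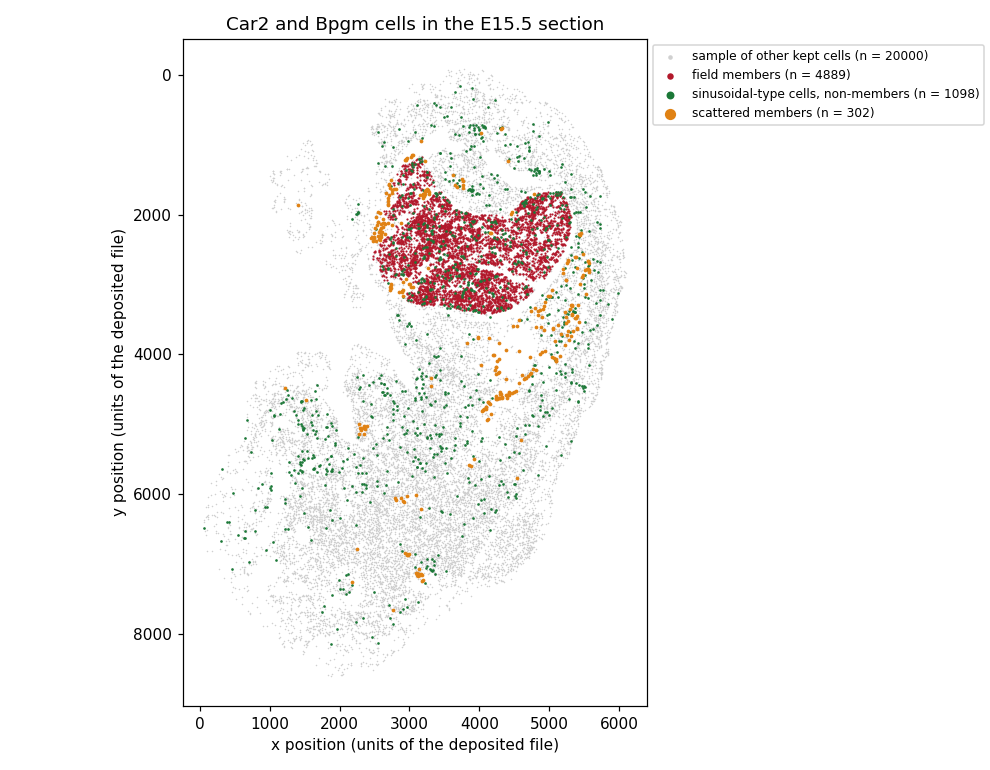
Positions of cells in the E15.5 section, with both axes in the position units of the deposited file. Red points are the 4889 field members, orange points the 302 scattered members, green points sinusoidal-type cells that are no members and grey points a random 20000 of the other kept cells; the red points form one dense area towards the top of the plot and the orange points lie at its edge and elsewhere in the section.

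The field held 19827 kept cells, 10.1% of the section, of which 24.7% were members. It held 88.6% of all cells with at least 3 Car2 counts but 13.6% of all cells with a Bpgm count. In the field, 67.9% of cells had at least 3 Car2 counts, against 0.987% outside it. Car2 made up 107126 counts per 1000000 counts of all panel genes in the field and 1252 outside, a ratio of 85.6. Bpgm made up 8597 and 2665, a ratio of 3.23, and 1.55 over the Stmn2 cells. The gate drew the field's outline, so these ratios describe it and test nothing.

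Within the field the share of cells with Bpgm is given by Car2 count as a description, since both genes define the members and the field. A Bpgm count was present in 15.2% of field cells without Car2 (95% interval 13.6% to 16.9%), in 22.3% of those with 1 to 2 Car2 counts, in 31.2% with 3 to 4, in 35.5% with 5 to 9 and in 43.6% with 10 or more (42.0% to 45.3%). Cells with more Car2 also had more counts of other genes. Among cells with 30 to 59 counts of other genes, the shares were 12.1%, 23.4%, 29.6%, 34.5% and 38.9% in the same order. Members entered the field through their group and non-members through their neighbours, which raises the share at 3 or more Car2 counts by construction. When every cell had to have at least 5 other field members within 50 units, a rule that left out 315 field members, the shares were 15.2%, 22.3%, 29.1%, 34.2% and 42.3%.

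Against all other kept cells, Rgcc, Slc38a5 and Odc1 had the largest ratios in members. Ratios here are of summed counts scaled to 1000000 counts of the 293 panel genes other than the gate genes (CPM), and a gene is called higher at a ratio of at least 2 with an interval above 1 and at least 50 counts. Of the 293 genes, 59 were higher, which is 20.1%, and 105 were lower, which is 35.8%. The median ratio of all 293 was 0.765. Highest was Rgcc, a regulator of the cell cycle, at 14441 CPM against 1109 (ratio 13.02, 12.6 to 13.4). It was present in 50.7% of members and 9.17% of other cells.

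Slc38a5, a transporter of glutamine and related amino acids, stood at 5465 CPM against 436 (ratio 12.5, 11.9 to 13.2). Odc1, ornithine decarboxylase, the first enzyme of polyamine synthesis, stood at 35507 against 2942 (12.1, 11.8 to 12.3) and was present in 77.3% of members. Slc2a1, the glucose transporter GLUT1, had a ratio of 6.22 (5.60 to 6.90), although only 7.20% of members held a count of it. The cationic amino acid transporter Slc7a1 had a ratio of 4.11 and the large neutral amino acid transporter Slc7a5 one of 3.70; both lie outside the rule for named genes and were picked after their values were seen, as carriers beside Slc38a5.

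Ptp4a3, Rrm2, Stab2 and Btg2 followed in order of ratio. Ptp4a3, a phosphatase, had a ratio of 11.2 (10.7 to 11.6). Btg2, an antiproliferative gene, stood at 19481 CPM against 2240, a ratio of 8.70 (8.47 to 8.93). Cdca8, a subunit of the chromosomal passenger complex, had a ratio of 5.95 (5.69 to 6.23). Stab2, 1 of the 3 sinusoidal transcripts, had a ratio of 9.37 (8.58 to 10.2) but was present in 6.07% of members against 1.53% of other cells. Of the 15 genes with the largest ratio, 7 were on the proliferation list.

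Tubb2b, a tubulin of young neurons, had the smallest ratio. It was at 412 CPM in members and 14619 in other cells, or 0.028. Cpe, a carboxypeptidase of secretory granules, had a ratio of 0.037. Spock2, a matrix proteoglycan, had 0.048, the sodium channel gene Scn3a 0.049 and Rgs4 0.050, and Fibin 0.071, Chst1 0.087 and the homeobox gene Meis2 0.093 completed the 8. At most 6.09% of members held a count of any of these 8. Blank codes set the floor of the method: the highest of the 19 had 310 counts in members and the mean was 76.1, and 174 of the 293 genes had no more counts than the highest.

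Against nearby cells the ratios were smaller. Against non-members within 50 units of a member, 3 of 293 genes (1.02%) were at least 2-fold higher: Slc2a1 (2.16), Ptp4a3 (2.10) and Rgcc (2.06). The other 12 of the 15 leading genes had ratios between 1.28 for Stab2 and 1.99 for Odc1. Lower were 76 genes (25.9%). When field members were set against field non-members, 0 of 293 genes were 2-fold higher and 0 were 2-fold lower (0% in each direction), and the counts were also 0 and 0 against the 8570 field cells with at least 3 Car2 counts and no Bpgm. In the field the 15 genes had ratios from 0.810 for Stab2 to 1.45 for Slc2a1 (1.28 to 1.65).

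**Figure D2:**
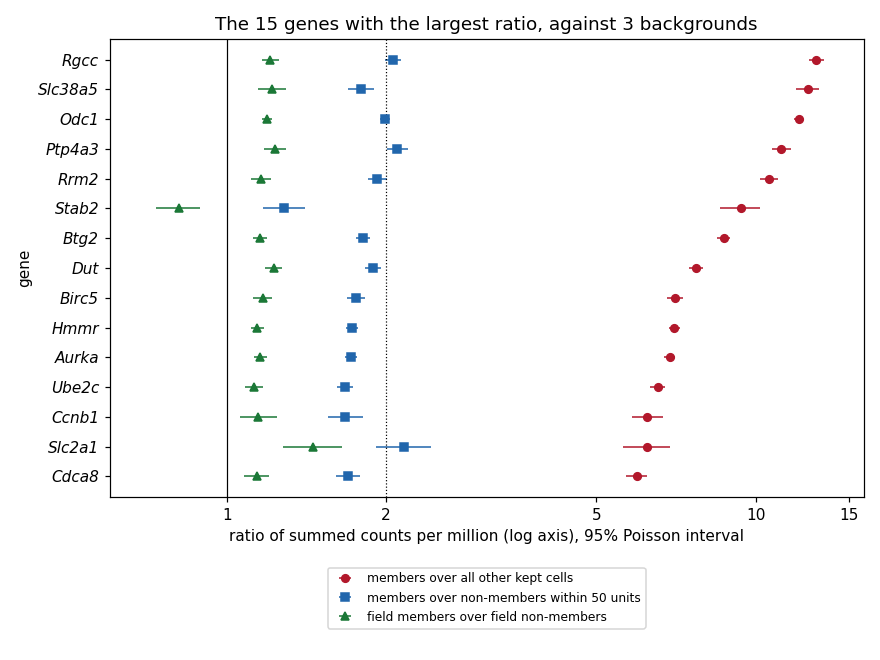
Ratio of summed CPM, on a log axis with 95% Poisson intervals, for the 15 genes with the largest ratio in members. Red circles compare members with all other kept cells, blue squares with non-members within 50 units, and green triangles compare field members with field non-members; Rgcc falls from 13.02 to 2.06 and 1.21 across the 3, and Stab2 ends below 1.

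Smaller differences remained between field members and field non-members. Arl4a, a small GTPase of the ARF family, had a ratio of 1.34 (1.27 to 1.42) and Slc2a1 the 1.45 given above. Col1a2, Fbln2 and Fstl1 had ratios below 1 by less than 2-fold: Col1a2, a chain of type I collagen, had a ratio of 0.536 (0.457 to 0.626), Fbln2 of 0.552 and Fstl1 of 0.595. Of the 4 mesenchymal and 8 mural genes on the panel, 0 were 2-fold lower in this comparison, and their ratios reached up to 1.04 and 1.19. The imprinted transcript H19 was at 153629 CPM in field members and 194740 in field non-members, a ratio of 0.789. Arl4a, Fbln2, Fstl1 and H19 were picked after their values were seen. The median ratio of all 293 genes in this comparison was 0.927.

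Proliferation genes were high as a group in members. Of 39 listed, 16 were on the panel, and 15 of these were at least 2-fold higher than in all other kept cells and 0 lower, with a median ratio of 4.95 beside 0.765 over all genes tested. Their summed counts were 18.5% of the members' counts and 3.56% of those of other cells, a ratio of 5.19 (5.14 to 5.23). Pimreg, a mitotic regulator, was the exception at a ratio of 1.00 (0.867 to 1.15).

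Genes of both DNA synthesis and mitosis were among them. Rrm2, the small subunit of ribonucleotide reductase, had a ratio of 10.6 (10.2 to 11.01), and Dut, which removes dUTP, one of 7.72 (7.49 to 7.96). Pclaf, a PCNA-binding protein, had 3.16 and the histone variant gene H2afz 3.19. In mitosis, Birc5 (survivin) had 7.04, Hmmr, a spindle protein, 7.02, the kinase gene Aurka 6.88, Ube2c, which charges the anaphase-promoting complex with ubiquitin, 6.53 and the cyclin gene Ccnb1 6.23. Nusap1 followed at 5.27, the centromeric histone gene Cenpa at 4.63, topoisomerase Top2a at 4.57, Cenpe at 3.98, Cdk1 at 2.96 and Cenpf at 2.90. The mitotic and synthesis genes were high together in these sums.

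The difference was also seen at equal depth. Every cell with at least 20 counts of the 293 genes was thinned to 20, which left out 681 members and 18464 other cells. At least 1 proliferation count was then present in 95.2% of members and 37.7% of other cells, and at least 3 in 69.5% and 9.92%. Without thinning, over all 5191 members and 190724 other cells, at least 1 was present in 97.4% and 65.5%. Rrm2 was present in 19.8% of members and 2.44% of other cells after thinning. In the Stmn2 cells at least 3 proliferation counts were present in 0.888%.

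The neighbours of the members were also rich in these counts. Proliferation genes made up 17.2% of the counts of field non-members and 19.8% of those of field members, a ratio of 1.15 (1.14 to 1.16). Against non-members within 50 units the ratio was 1.61 (1.60 to 1.63), and against field Car2 cells without Bpgm it was 0.995 (0.984 to 1.006). After thinning, 61.4% of field non-members held at least 3 proliferation counts. Outside the field the share of proliferation counts was 3.13%.

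Of the genes that accompany exit from the cycle, 2 of 4 on the panel were higher and 2 lower, beside 20.1% and 35.8% of all 293 genes. Btg2 is given above, and Ccng1, a cyclin induced by p53, had a ratio of 3.21 (3.06 to 3.37). Cdkn1c, the inhibitor p57, was at 0.164 (0.157 to 0.172) and Cdkn1a, the inhibitor p21, at 0.182 (0.160 to 0.206). In the field the ratios of Cdkn1c and Cdkn1a were 0.675 and 1.08, the latter close to 1.

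Markers of other cell types were read in the same way, beside the 20.1% of all 293 genes that were higher and the 35.8% that were lower. Of 8 liver sinusoidal genes on the panel, 3 were higher, Stab2, Oit3 (2.53) and Lyve1 (2.46), and Maf was lower (0.458); their summed level was 7864 CPM in members, 6100 in other cells and 9496 in field non-members. Of 6 macrophage genes none passed in either direction, with Fcer1g at 1.90 and Tyrobp at 1.59, and summed levels of 3477 and 3562 CPM. Of 6 endothelial genes Cldn5 was lower (0.461) and none higher, while Kdr stood at 0.857 and Pecam1 at 0.865. Whether transcripts of adjoining cells entered the members' outlines was not tested.

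Of 8 mural genes Vtn was higher (3.06) and 4 were lower, shares near those of all genes (20.1% and 35.8%); the lower were led by Acta2, smooth muscle actin, at 0.164. All 4 mesenchymal genes were lower, among them Col1a2 at 0.145 and Dcn, decorin, at 0.215. Of 4 neuronal genes outside the gate, Tubb2b, Scn3a and Meis2 were lower and Reln stood at 1.59. The 3 glial genes were lower, with Fabp7 at 0.274. The epithelial gene Spint2 stood at 0.8004 and the osteoclast gene Mmp9 at 1.70; neither passed.

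The members were larger than other cells by the deposited cell volume, which has no stated unit. Their median volume was 821 (quartiles 612 and 1077) and that of other kept cells 634 (435 and 878), a ratio of 1.30. Field non-members had a median of 631 (445 and 853), and field Car2 cells without Bpgm 714 (526 and 923), which gives ratios of 1.30 and 1.15 for field members at 819. The volumes of all groups overlapped widely. The gate is set on raw counts per cell. Within each class of Car2 counts field cells with Bpgm were larger than those without, for example 708 and 605 in median volume at 3 to 4 Car2 counts.

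**Figure D3:**
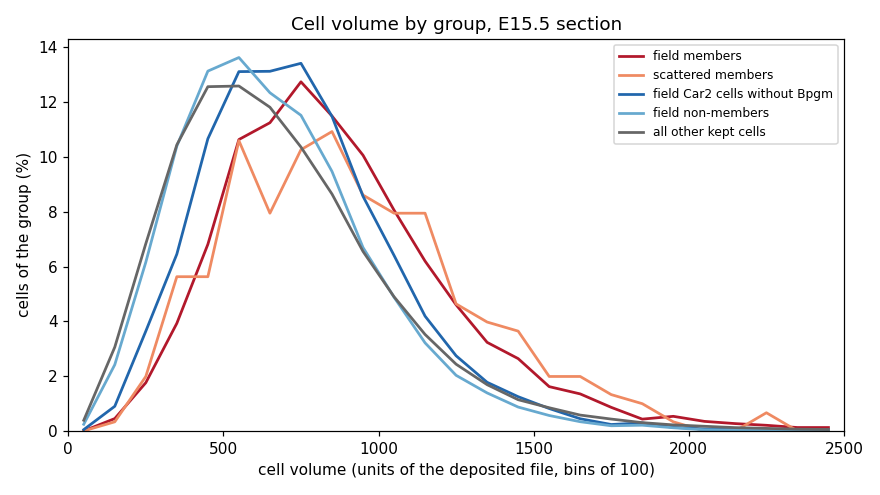
Share of cells, in percent of each group, by cell volume in bins of 100 (units of the deposited file). Field members (dark red) and scattered members (orange) lie to the right of field non-members (light blue) and of all other kept cells (grey), with medians of 819, 861, 631 and 634, and the curves overlap over most of their width.

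Among cells with a similar number of counts of other genes, members also had the larger median volumes. Members held fewer counts per volume than other kept cells, so matching on counts favours larger volumes in them by construction. The gate also asks for at least 3 Car2 counts and 1 Bpgm count beyond the matched ones. The match therefore cannot separate volume from count density or from the gate. Among cells with 30 to 59 such counts, the median volume was 796 in 1846 members, 492 in 38740 other cells, 720 in field Car2 cells without Bpgm and 679 in field non-members. Among cells with 10 to 29 counts the medians were 619, 441, 551 and 492. Among those with 60 to 119 they were 979, 585, 885 and 865. The members held 57 counts per cell at the median, against 85 in other cells and 38 in field non-members, and 7.98 counts per 100 volume units against 15.8 in other cells. The DAPI (DNA) stain per volume was 1.93 times that of other kept cells and 1.00 times that of field non-members, in medians, and the poly(T) (polyadenylated RNA) stain 1.28 times and 0.996 times.

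Sinusoidal-type cells were taken as kept cells with at least 2 counts over Stab2, Oit3 and Clec4g, of which there were 1211. Within 50 position units, 3168 of 5191 members (61.0%, 59.7% to 62.4%) had such a cell other than themselves, against 23.6% of other kept cells (23.4% to 23.7%). Members had fewer kept cells in that radius, 51 at the median against 68. Their median distance to the nearest sinusoidal-type cell was 42.0 units, against 91.3 for other cells.

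Field members and field non-members had close shares. Field non-members were defined by field members within 50 units, so both groups lay among the same cells. Close shares follow largely from that definition and test nothing. Among field members the share was 63.2% (61.8% to 64.6%) and among field non-members 63.8% (63.0% to 64.5%), with 52 kept cells in the radius in both. It was 25.8% among the 302 scattered members (21.0% to 31.2%) and 20.2% among all cells outside the field. At a radius of 20 units the shares were 16.96% and 16.9% for field members and field non-members, and at 100 units 97.0% and 96.6%. Seen from the other side, 44.8% of the 1211 sinusoidal-type cells, 113 of them members, had another member within 50 units. Of the 1098 sinusoidal-type cells that were no members, 430 had one, against 11.9% of other kept cells that were no members.

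**Figure D4:**
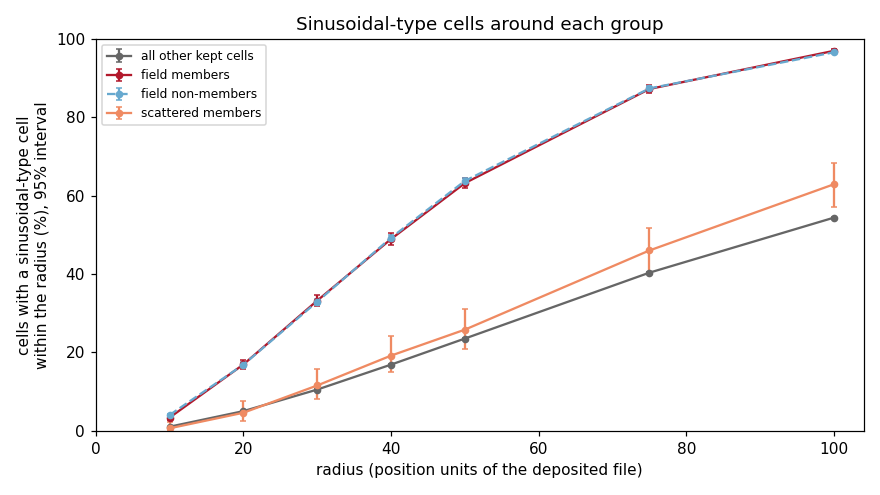
Share of cells with a sinusoidal-type cell within a given radius, from 10 to 100 position units, with exact binomial 95% intervals. The lines of field members and field non-members lie on each other (63.2% and 63.8% at 50 units), and those of scattered members and all other kept cells lie lower (25.8% and 23.6%).

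The sinusoidal-type cells of the field were called on Stab2. The 455 in the field, 111 of them members, held 1501 counts of Stab2 over members and non-members, against 203 of Oit3 and 34 of Clec4g. The 756 outside the field held 621, 572 and 561. The 2 kinds of place thus differed in which of the 3 transcripts met the threshold. Members with and without a sinusoidal-type cell nearby had median volumes of 840 and 800, and their proliferation counts had a ratio of 1.06 (1.04 to 1.08). Between them 0 of 293 genes were 2-fold higher near such a cell (0%) and 16 were lower (5.46%). Sfrp2, a secreted Wnt modulator named for the smallest ratio there, stood at 0.123 (0.089 to 0.167). Scattered members were split unevenly between these 2 groups: 78 of 302 had such a cell nearby, against 3090 of 4889 field members. Their part in these differences, and in the ratio of 1.06, was not tested.

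Macrophages, the other partner in erythroid islands, were looked for with a sum of at least 3 counts over the 6 macrophage genes, which 3985 cells met. Within 50 units, 28.9% of members had one, 31.3% of field non-members and 46.9% of other kept cells. The share was thus lower around members than over the rest of the section. The call needs raw counts, of which field cells held 42 at the median and cells outside the field 92. Members also had 51 kept cells in the radius at the median, against 68 for other kept cells. The share was not corrected for either, and whether macrophages were fewer around members was not tested.

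Among field members, a higher Bpgm count went with more Slc2a1. The 3439 field members with 1 Bpgm count, the 978 with 2 and the 472 with 3 or more had median volumes of 793, 885 and 899 and median total counts of 57, 58 and 53. Slc2a1 stood at 1115, 1705 and 3125 CPM in the same order, a ratio of 2.80 (2.12 to 3.67) between the last and the first. The scavenger receptor gene Cd36 had a ratio of 2.68 (1.83 to 3.85), Arl4a of 2.04 (1.79 to 2.33) and Ptp4a3 of 1.86 (1.65 to 2.09). Lower were Pclaf at 0.643 (0.495 to 0.823) and Spint2 at 0.446. Cd36 and Spint2 had 208 and 221 counts in field members, fewer than the 310 of the highest blank code in all members.

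Proliferation counts were 19.96%, 19.7% and 18.8% over the 3 Bpgm classes. Of 123 genes with at least 200 counts in field members, 9 were at least 1.5-fold higher with an interval above 1 between the highest and lowest Bpgm class (7.32%) and 2 lower (1.63%). The classes were cut from the gate gene itself, and Slc2a1, Cd36, Arl4a and Ptp4a3 were picked from this contrast after the values were seen. The other 5 called higher included markers of other cell types, namely Bgn (1.799) and Dcn (1.52), matrix proteoglycans, Mrc1 (1.55), which is on the sinusoidal and macrophage lists, and Maf (1.60), on the sinusoidal list, with Anxa2 (1.63). The part of these markers in the other differences was not tested. Bgn, Maf and Anxa2 had 212, 235 and 284 counts in field members, also fewer than the highest blank code in all members.

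**Figure D5:**
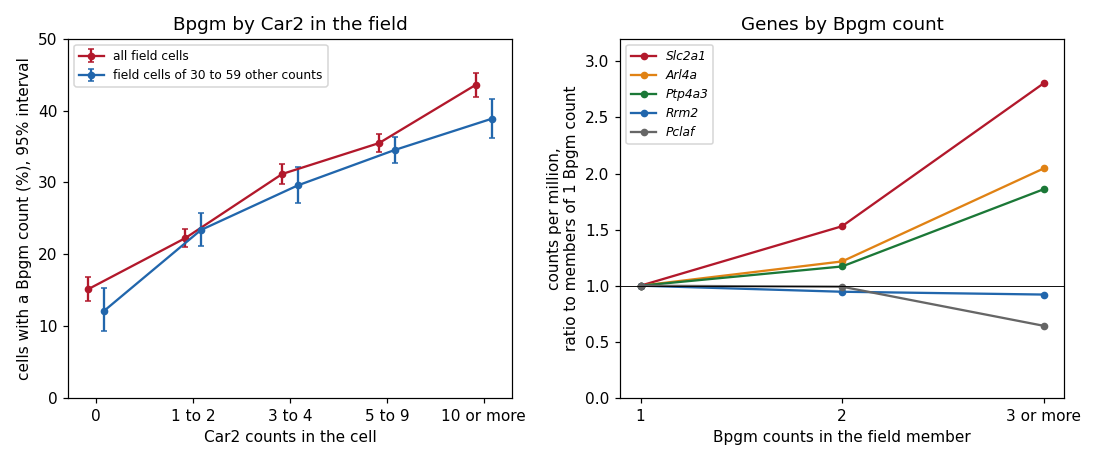
Left: share of field cells with a Bpgm count (%, exact 95% intervals) by their Car2 counts, for all field cells (15.2% to 43.6%) and for those with 30 to 59 counts of other genes (12.1% to 38.9%). Right: CPM of 5 genes in field members with 1, 2 and 3 or more Bpgm counts, as a ratio to the first class; Slc2a1 reaches 2.80, Arl4a 2.04 and Ptp4a3 1.86, while Pclaf falls to 0.643.

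A higher Car2 count went with larger cells and more proliferation counts. The 1257 field members with 3 to 4 Car2 counts, 2097 with 5 to 9, 1314 with 10 to 19 and 221 with 20 or more had median volumes of 708, 789, 943 and 1139. Total counts at the median were 35, 51, 82 and 131, so depth rose with Car2. Proliferation genes made up 15.95%, 18.6%, 21.9% and 24.0% of the other counts. Birc5 was 1.84 times as high in the last class as in the first (1.60 to 2.11), Aurka 1.78 times (1.62 to 1.95) and Rgcc 1.67 times (1.48 to 1.88).

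The share near a sinusoidal-type cell was 58.8%, 62.9%, 67.05% and 68.3% over these Car2 classes. Of 123 genes, 19 were at least 1.5-fold higher (15.4%) and 40 lower (32.5%) between the last and the first. Among the lower was Vim, the intermediate filament gene vimentin, at 0.382 (0.284 to 0.508), which with Birc5, Aurka and Rgcc was picked after the values were seen.

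Values were compared between places in the field. It was divided into squares of 500 position units, of which 17 held at least 100 field members. Members were 19.5% to 27.6% of the kept field cells of a square (median 25.3%), their median volume lay between 779 and 911, and proliferation genes made up 18.4% to 21.6% of their counts. Rgcc lay between 13612 and 18850 CPM and Odc1 between 31731 and 47177. Both were above the level outside the field in 17 of 17 squares. They had been named for their large ratios in these same members, so this follows from the choice and is no separate support. Slc2a1 varied more, from 741 to 2273, and Stab2 from 905 to 3860. The share near a sinusoidal-type cell varied from 39.6% to 78.7%.

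Calls between the 3 large groups rest on few genes. A gene needed 50 counts to be called higher, which 40 of 293 genes reached in the second group and 49 in the third. Against the first group, 0 of 293 genes were 2-fold higher in the second (0%) and 4 lower (1.37%), and 0 were higher in the third (0%) and 10 lower (3.41%). The third group had 1.70 times the median total counts and 0.503 times the DAPI stain per volume of the first. Its Bpgm level per total counts was 0.477 times that of the first, and its Bpgm mean per cell 1.20 against 1.47. The gate asks for at least 1 Bpgm count in each member, so the level per total counts falls with depth by construction. Dlk1, a Notch-family ligand of fetal tissues picked after the values were seen, was 1.71 times as high in the third group (1.48 to 1.95). Its proliferation share was 17.7% against 19.9%, a ratio of 0.887 (0.851 to 0.924).

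The summed counts of the 302 scattered members differed from those of the field members. Against field members, 83 of 293 genes were 2-fold higher (28.3%) and 36 lower (12.3%). Sfrp2 stood at 6987 CPM against 101, a ratio of 69.0 (46.7 to 106), Sparcl1, a matricellular protein gene, at 58.9, Lox, lysyl oxidase, at 25.7, the glial gene Fabp7 at 25.3 and Foxf1, a transcription factor of visceral mesenchyme, at 15.02. Sfrp2, Sparcl1, Lox, Fabp7 and Foxf1 were picked after the values were seen. Each of these genes had fewer counts in field members than the 310 of the highest blank code in all members. Sfrp2, Sparcl1, Lox and Fabp7 also had fewer than the mean blank code, 76.1. Their levels in field members thus lay near the floor of the method, and the sizes of these ratios are uncertain. Rgcc was at 0.147 (0.119 to 0.181), Odc1 at 0.185, Btg2 at 0.205 and Rrm2 at 0.215.

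Proliferation genes made up 8.99% of the scattered members' counts, against 19.8% in field members and 3.13% outside the field. Their Car2 mean was 4.86 and their Bpgm mean 1.79, against 8.40 and 1.46 in field members. They had a median volume of 861, a median of 83.5 counts and 0.526 times the DAPI stain per volume. Of the mesenchymal genes 3 of 4 were higher than in field members, and of the endothelial genes 4 of 6, beside 28.3% of all genes. The sum does not show 1 shared profile: in the largest scattered groups, of 16 and 15 cells, proliferation genes made up 18.8% and 20.9% of counts and the Car2 means were 7.94 and 5.93, proliferation shares close to the 19.8% of the field.

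At E9.5 the same gate found few cells. Replicate 1 had 0 members among 830 kept cells, which allows a share of up to 0.361%, and 1 cell with 3 or more Car2 counts. Replicate 2 had 39 among 6334 (0.616%, 0.438% to 0.841%). A Bpgm count was present in 22.8% and 29.4% of kept cells of these sections. The median counts per kept cell were 61, 128 and 84 in E9.5 replicate 1, E9.5 replicate 2 and E15.5, and no cell identifier was shared between sections. With so few cells and 1 section at E15.5, the ages are given side by side and not compared.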

How the data were processed

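Whole-embryo sections of 3 wild-type mouse embryos (1 at E15.5, 2 at E9.5) were hybridised, imaged, decoded and segmented on the MERSCOPE platform, per the labels' protocols; the sources used here state no setting of the decoding or segmentation and no filter, and the submitters' processing notes name Scanpy and Seurat. The authors deposited raw counts per segmented cell and gene, with no normalization, and per the file headers a cell volume and centre position with no stated unit and summed DAPI and PolyT stain intensities, which were divided here by volume. The E15.5 section held 219525 cells and 21309070 gene counts, with a median of 84 counts in kept cells. Sections were not pooled, and doublets were not called.

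Counts were summed per group and divided by the summed counts of the 293 panel genes other than Car2, Bpgm and Stmn2. Intervals of ratios are exact conditional Poisson intervals and those of shares exact Clopper-Pearson intervals, at 95%; both cover counting error only. The fold calls were tested on summed counts simulated with known ratios from the Poisson model that the intervals assume. That simulation held no variation between cells and no transcripts from adjoining cells, so it does not cover these. Named genes were the 15 with the largest ratio above the highest blank code, the 8 with the smallest ratio and at least 50 expected counts, and the leading genes of the fixed marker and proliferation lists; genes picked later are said to be so. The members and lists were chosen with earlier results of these data known. Alternatives covered the count minimum, the gate, cell volume, the denominator, the comparison cells and the neighbour rule. Promoter letters came from a RefSeq table, which held 220 of the 296 panel genes; no gene coordinates were otherwise used. Python 3.11.15 with NumPy 2.4.6, pandas 2.3.3, SciPy 1.17.1 and Matplotlib 3.10.9 was used.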

Additional observations from a re-analysis of the deposited data

Results flagged for a closer look

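Cells that met the gate were also found in a section outside the E15.5 results. In E9.5 replicate 2, 39 of 6334 kept cells had at least 3 Car2 counts, at least 1 Bpgm count and fewer than 3 Stmn2 counts. This was above the floor of 3 cells set here for flagging. E9.5 replicate 1 had 0 of 830. Against the other kept cells of that section Reln had a ratio of 6.32 (4.86 to 8.10), Spint2 3.63, Ranbp1 3.18, Gnai2 2.69, Gnas 2.24, the mitotic gene Hmmr 2.21 and Nr1h2 2.11. These were all the genes called higher. Genes called lower were more numerous, among them Foxf1 (0.057) and Vim (0.363), named after the values were seen. The 39 cells had a median volume of 1049 against 739 in the other cells. Their median was 61 counts, against 128 over all kept cells of the section. The ages were not compared.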

How the results depend on the processing

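The choice of comparison cells changed the gene counts and the proliferation ratio most. The 59 genes called higher became 3 against non-members within 50 units and 0 against field non-members and against field Car2 cells without Bpgm, the last 2 comparisons having been chosen after seeing the data. They became 26 when counts were divided by the number of cells and 19 when divided by cell volume, while the 105 called lower became 158 and 186 of 293, most of the panel. Under all panel counts as denominator they were 52. Among named genes, those whose ratio crossed 1 against field non-members were Stab2 (0.810), Oit3 (0.867), Lyve1 (0.906), Cdkn1a (1.08), Chst1 (1.06) and Rgs4 (1.09). Against field Car2 cells without Bpgm they were Rgcc (0.992), Odc1 (0.978), Rrm2 (0.947), Btg2 (0.974), Birc5 (0.993), Hmmr (0.972), Aurka (0.988), Ube2c (0.997), Cdca8 (0.991), Top2a (0.986), Ccng1 (0.996), Pclaf (0.998), Cenpf (0.989), Oit3 (0.962), Maf (1.22), Cdkn1a (1.24), Meis2 (1.24), Chst1 (1.18), Fibin (1.05), Rgs4 (1.10), Spock2 (1.05), Cpe (1.23) and Tubb2b (1.01). Several of these have intervals that include 1 and show no change of direction, such as Rgcc (0.955 to 1.03), Odc1 (0.955 to 1.002) and Birc5 (0.951 to 1.04). The interval of Rrm2 lies below 1 (0.905 to 0.991).

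The proliferation ratio of 5.19 was 4.66 with Car2 of at least 2, 5.60 with at least 5, 4.82 with Bpgm of at least 2, 5.27 without cells over 3 times the median volume and 5.56 without scattered members. It was 4.64 over all panel counts, 2.99 per cell and 2.35 per volume, 1.61 against non-members within 50 units, 1.15 against field non-members and 0.995 against field Car2 cells without Bpgm. The volume ratio of 1.30 was 1.35 with no count minimum, 1.36 with Car2 of at least 5, 1.39 with Bpgm of at least 2, 1.15 against field Car2 cells without Bpgm and 1.62 among cells of 30 to 59 other counts. Bpgm of at least 2 left 1562 members.

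The share of 61.0% near a sinusoidal-type cell was 59.4% with at least 20 counts per cell, 58.9% with Car2 of at least 2, 63.4% with at least 5 and 63.2% without scattered members. It was 23.9% at a radius of 25 (7.65% of other kept cells), 94.97% at 100 (54.4%), 41.9% with a sum of at least 3 (6.24%), 33.5% among the 20 nearest cells (9.59%) and 52.2% when members did not count as neighbours (22.8%), higher in members each time. The causes of these shifts were not tested beyond what each alternative changes by construction. The other 24 of 55 alternative values stayed within the interval of the value reported, or within 1.5 times for counts. Depth limits single genes: 174 of 293 had no more counts in members than the highest blank code. No paired analysis was possible because the results come from 1 section.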
